A study of Mus musculus with 16 samples.

Results

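Among 16 arrays of cultured mouse tumour lines, the arrays labelled Hepa1-6 and PAN02 were set side by side. They are 2 of the 16, chosen by their labels, and were read against the 10 arrays of other lines labelled C57BI6. These 10 arrays come from 6 families, a family being a line with its sublines. The B16F0 and B16F10 arrays are of the same family, and so are TRAMPC1 and TRAMPC2. Where stated, the pair was also read against the 4 arrays of other strains: CT26, 4T1 and Renca, labelled Balb/C, and P815, labelled DBA/2. TRAMPC1 and TRAMPC2 are labelled male and all other arrays female. The labels give Hepa1-6 and PAN02 the strain C57BI6 and the sex female. Hepa1-6 is labelled as liver and PAN02 as pancreas. Hepa1-6 is a hepatoma line and PAN02 is a pancreatic tumour line, and both are grown as transplantable tumours in mice of that strain. Each line gave DNA from 1 culture to 1 array, so there is no replicate, no p-value and no measure of the spread between cultures. An SE below is taken over probes along the genome and shows only how well a mean was fixed on that array. The tissue named in a label cannot be checked from DNA copy number.

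Array comparative genomic hybridisation compares the amount of each DNA stretch in a line with that in a reference DNA. Here the line was labelled with Cy5 (red) and a commercial mouse genomic DNA, used as the reference on each array, with Cy3 (green). The values are log2 of line over reference, set so that the median autosomal probe of an array is 0. A value above 0 is a relative gain and a value below 0 a relative loss. Tumour lines carry gained and lost chromosomes, parts of chromosomes and short deletions that pass from cell to cell, so the set of changes and the places where they begin and end are characters of a line. Inherited differences between mouse strains and the reference DNA also appear as gains and losses, and lines of 1 strain share those. A change seen in a pair of lines therefore tells about the lines only where others of the strain lack it.

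The arrays held 220668 autosomal, 11951 X and 593 Y probes with a position on the build mm8, at a median spacing of 7827 bp. The difference between neighbouring probes gave a noise SD of 0.31 in Hepa1-6 and 0.40 in PAN02, within the range of the other arrays. In both arrays more than 99% of probes were well above background in either dye: 99.8% of the line signals in Hepa1-6 and 99.7% in PAN02. The arrays fall into 2 scan batches, and the pair does not share one: Hepa1-6 was in the first and PAN02 in the second. The B16F10 ATCC array, a comparator, stands apart: it shared 735 single low probes with P815, a DBA/2 line, that no other array had, on all 19 autosomes. The share altered in the pair alone, the breakpoints in no other C57BI6 array, the step measure and the bin correlation are therefore also given without it. The other comparisons below with the C57BI6 arrays include it.

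Hepa1-6 and PAN02 showed nearly the same level on each chromosome. Chromosomes 10, 12, 15, 17 and 19 were at or above 0.2 in both arrays, and chromosomes 1, 4, 14 and 18 were at or below -0.2 in both. The median of a chromosome had the same sign in both arrays for 19 of 19 autosomes. Between the arrays it differed by 0.025 at most, on chromosome 15, and by 0.0100 in the median autosome. Chromosome 12 was the highest, at 0.37 in Hepa1-6 and 0.39 in PAN02, and the 10 other C57BI6 arrays ran there from -0.26 to 0.31. Chromosome 15 stood at 0.36 and 0.38, inside the range of the others, which reached 0.64 in ID8. Chromosome 17 stood at 0.27 and 0.28, against 0.042 to 0.25 in the others. Chromosome 19 stood at 0.26 and 0.28, with 3 of the others higher.

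Chromosomes 3, 6, 8, 10, 12 and 17 placed the pair outside all 10 other C57BI6 arrays. Chromosome 10 lay at 0.24 in both, above the highest of the others, TRAMPC2 at 0.057. Chromosome 3 lay at 0.13 in both, and the highest of the others was MC38 at 0.023. On the low side, chromosome 8 lay at -0.19 in Hepa1-6 and -0.20 in PAN02, and the lowest of the others was B16F0 ECAC at -0.091. Chromosome 6 is a different case. The pair was close to the array median there, at -0.038 and -0.046, while the others ran from 0.030 to 0.77. Each array was also centred on the mode of its means over 1 Mb stretches (bins). Chromosomes 6, 7, 9 and 16 then turned positive in both arrays, and every chromosome past 0.2 kept its direction. None of the low chromosomes then stayed at or below -0.2 in both arrays. Chromosome 1 was at -0.17 and -0.19, chromosome 4 at -0.19 and -0.21, chromosome 14 at -0.19 and -0.19, and chromosome 18 at -0.17 and -0.18. The 5 gained chromosomes stayed at or above 0.2.

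**Figure D1:**
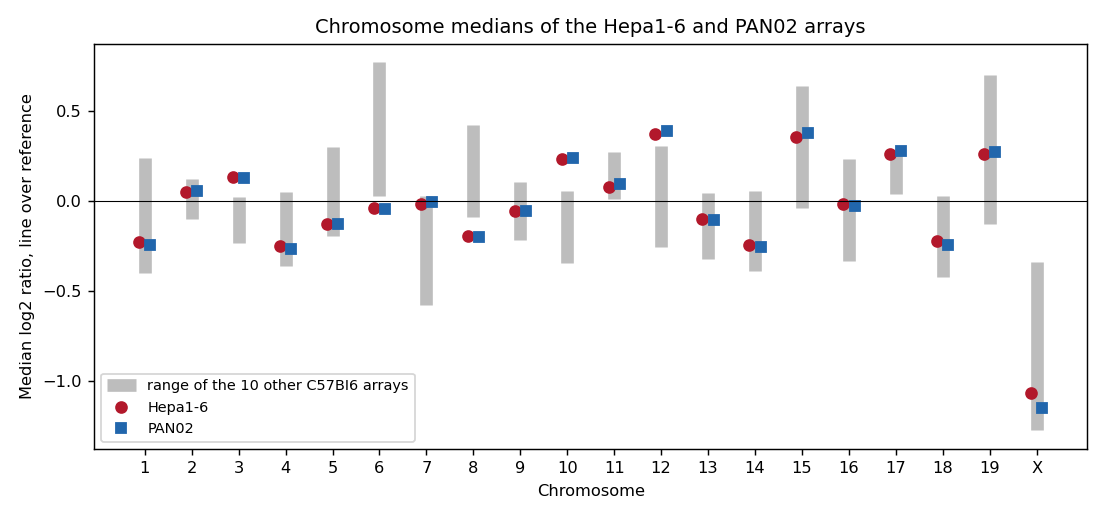
Median log2 ratio of line over reference for each autosome and chromosome X (vertical axis), with Hepa1-6 as red circles, PAN02 as blue squares and the range of the 10 other C57BI6 arrays as grey bars. The red and blue points lie together on every autosome, and on chromosomes 3, 6, 8, 10, 12 and 17 both lie outside the grey bar.

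For finer changes, the mean of both profiles was divided into segments, and a segment counted as altered where its mean was at or past 0.3 in the same direction in each array. Segmented alone, Hepa1-6 had 13.4% of its autosomal probes in segments past 0.3 and PAN02 had 21.3%. In the joint segments, 13.4% of probes were altered in both arrays, 11.5% as gains and 1.92% as losses. In 3 long joint segments PAN02 was past that limit and Hepa1-6 was not, and these held 7.39% of the probes. The distal part of chromosome 10 from 56133793 to 129936878 was at 0.297 in Hepa1-6 and 0.314 in PAN02. Chromosome 19 was at 0.287 and 0.310, and the proximal part of chromosome 17 was at 0.293 and 0.318. In each of these the arrays differed by less than 0.03, so the gap in altered share comes from values next to the limit.

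**Figure D2:**
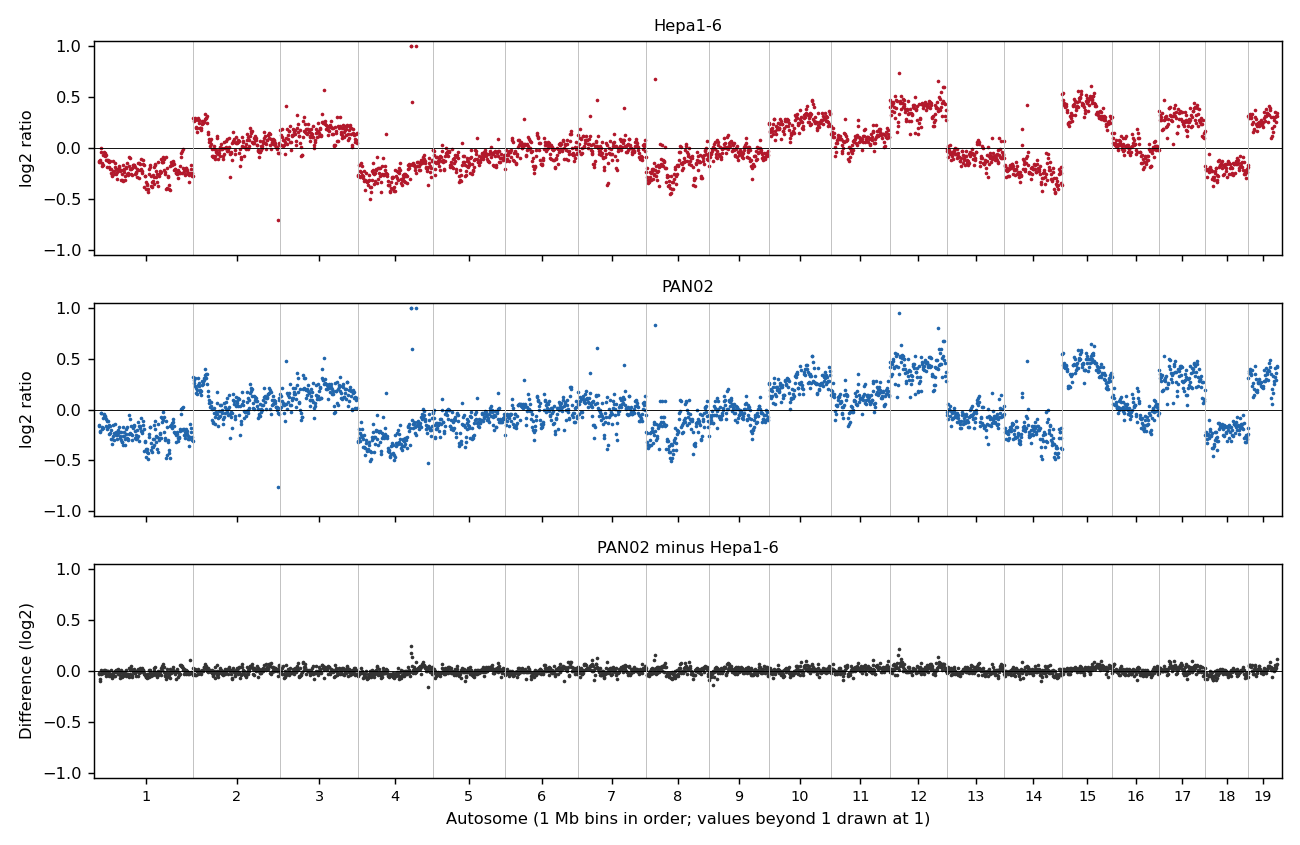
Means of 1 Mb bins along the 19 autosomes in order for Hepa1-6 (top, log2 ratio), PAN02 (middle, log2 ratio) and PAN02 minus Hepa1-6 (bottom, log2 difference), with grey lines between chromosomes. The upper panels step up and down at the same places, and 99.2% of the bins in the lower panel lie within 0.1 of 0.

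Of 80 joint autosomal segments, 10 were at least 5 Mb long and altered in both arrays: 6 gains, on chromosomes 12, 15 and 17, and 4 losses, on chromosomes 5, 8 and 14. Chromosome 12 was gained along its length in 3 such segments. The segment chr12:3095298-57862073 was at 0.40 ± 0.0057 (SE over 4020 probes) in Hepa1-6 and 0.42 ± 0.0070 in PAN02, a ratio of line over reference of 1.32 and 1.34. Next to it, chr12:57905238-104111744 was at 0.39 and 0.41. The distal chr12:104360162-120458172 was higher in both, at 0.45 and 0.50. Chromosome 15 fell into a higher and a lower part: chr15:3091692-72558123 was at 0.44 and 0.45, and chr15:72562571-103482674 at 0.30 and 0.34. On chromosome 17, chr17:30656351-88454219 was at 0.31 in Hepa1-6 and 0.35 in PAN02, and the level fell to 0.16 and 0.15 over the last 6.71 Mb of the chromosome.

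The 4 long losses were all shallow and close to the limit. On chromosome 8, chr8:44779663-67583998 was at -0.31 ± 0.0082 (SE over 1514 probes) in Hepa1-6 and -0.35 ± 0.010 in PAN02. A shorter one, chr8:100826618-106055781, was at -0.32 and -0.36. The end of chromosome 14, chr14:101765922-123948262, was at -0.30 and -0.33, and chr5:56398894-62015794 was at -0.31 and -0.34. With centring on the mode, all 4 losses rose above -0.3 in both arrays, and the gains grew.

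The other C57BI6 arrays had some of these changes and lacked others. The chromosome 14 loss was past -0.3 in 7 of the 10, among them the sublines B16F0 ECAC, B16F10 NCI and B16F10 ATCC. The distal chromosome 15 gain was past 0.3 in 6 of the 10, among them the sublines B16F0 ATCC and B16F10 NCI, and TRAMPC1 and TRAMPC2. Neither change thus sets the pair apart. On chromosome 12, the distal gain was past 0.3 in 3 of the 10: B16F0 ATCC, B16F10 NCI and B16F10 ATCC. B16F10 NCI reached 0.61 there, above the pair. In the middle segment of chromosome 12, B16F10 NCI, at 0.33, was the only 1 of the 10 past 0.3. In 3 of the 10 long segments none of the 10 other arrays was past 0.3 the same way: the proximal chromosome 12 gain, the chromosome 17 gain and the loss at chr8:100826618-106055781. These held 4.47% of autosomal probes. For the gains the margin was thin, since LL2 reached 0.28 on proximal chromosome 12 and 0.29 on chromosome 17. With a limit of 0.15 for the others, the share fell to 0.148%, all of it in the chromosome 8 loss, where the lowest other array was ID8 at -0.14 and the others reached 0.45. Their median also fell at its left edge, from 0.18 to 0.067. Against all 14 other arrays, or without the B16F10 ATCC array, the share was again 4.47%. Below the limit of 0.3, the start of chromosome 2, chr2:3010301-33373580, was at 0.26 in Hepa1-6 and 0.27 in PAN02, with LL2 the highest of the others at 0.18.

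The ends of segments were then compared with each array segmented alone. Hepa1-6 had 70 breakpoints within autosomes and PAN02 had 47. Of the Hepa1-6 breakpoints, 40 (57.1%) lay within 100 kb of one in PAN02, and of the PAN02 breakpoints 39 (83.0%) lay within 100 kb of one in Hepa1-6. Between arrays of different families the share ran from 3.51% to 61.7% and between sublines of 1 family from 31.2% to 65.2%, so the first share lies inside both ranges and the second above them. Many breakpoints belong to segments that the other C57BI6 arrays share. Leaving out those within 100 kb of a breakpoint of any other C57BI6 array left 19 in Hepa1-6 and 13 in PAN02, and 7 of each had a partner in the other array. Without the B16F10 ATCC array among the comparators these numbers were 20, 14 and 8.

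Those 7 breakpoints were called in both arrays of the pair and in no other C57BI6 array, which does not show that the other arrays lack a step there. On chromosome 2 the level fell by 0.25 in Hepa1-6 and by 0.27 in PAN02 between the same neighbouring probes, at 33373580 and 33380667. On chromosome 5 both profiles stepped down between 56378201 and 56398894, and on chromosome 8 both stepped down between 44771053 and 44779663. The other C57BI6 arrays also moved down at these last 2: across them, the median of their segment levels went from -0.00074 to -0.15 on chromosome 5 and from 0.063 to -0.12 on chromosome 8. On chromosome 16 both stepped up between 83273491 and 83303903, by 0.11 and 0.14. On chromosome 10 the step up was placed after 56117863 in Hepa1-6 and after 56065787 in PAN02. At the steps on chromosomes 2, 10 and 16 the median of the other C57BI6 arrays also moved the pair's way, but less far. It went from 0.040 to -0.0040 on chromosome 2, from -0.017 to 0.015 on chromosome 10 and from -0.10 to -0.057 on chromosome 16. The remaining 2 breakpoints are the edges of a short deletion on chromosome 12.

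At breakpoints found in 1 array without a partner, the other array showed the same step. The 30 Hepa1-6 breakpoints without a partner had a median step of 0.21 in Hepa1-6, and the same places read 0.24 in PAN02, in the same direction for 30 of 30. Of these, 17 were under 0.3, and the largest was 2.19. It is the step down into chr7:47457642-47476273, where PAN02 fell by 2.20. The 8 unmatched PAN02 breakpoints had a median step of 0.17 there and 0.15 in Hepa1-6, in the same direction for 8 of 8. Neither direction nor size of these steps set the pair apart. At the 19 Hepa1-6 breakpoints absent from other C57BI6 segmentations, PAN02 stepped the same way at 19. Each of the other C57BI6 arrays did so at 13 (B16F10 ATCC) to 18. The median step there, as a multiple of that in Hepa1-6, was 1.23 in PAN02, 1.16 in EL4 and 1.04 in ID8. At the 13 such PAN02 breakpoints, ID8 stepped the same way at 13, with a median of 0.90 of the PAN02 step, against 0.80 in Hepa1-6.

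Shorter changes were searched for among segments under 5 Mb. In the joint profile 20 such segments were past 0.5 in both arrays, 13 gains and 7 losses. Of these, 15 were past 0.3 the same way in all 10 other C57BI6 arrays, and none was past 0.3 in the pair alone. Most were thus shared with the other C57BI6 lines. Whether the strain, the reference DNA or the probes gave rise to them was not tested. The highest, chr4:111629720-112104237, was at 3.92 in Hepa1-6 and 4.26 in PAN02, between 2.54 and 4.85 in the other C57BI6 arrays and below 0 in all 4 arrays of other strains. In 29 of its 37 probes the reference was not well above background in at least one of the pair, so its height has little precision. The loss chr1:173351486-173405431 was at -2.24 and -2.27, and no array of another strain was below -0.010. The loss chr2:77680396-77792980, at -1.88 and -1.95, was past -0.3 in all 10 other C57BI6 arrays and in all 4 of other strains.

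The lowest short segment was a deletion on chromosome 12 that interrupts the gained chromosome. It consists of 4 neighbouring probes, chr12:57870667-57886546, which span 15.9 kb. From left to right they read -5.44, -5.46, -6.23 and -5.05 in Hepa1-6. In PAN02 they read -3.30, -5.61, -5.12 and -6.27. The signal of the line was not well above background at any of the 4 in either array. With each such signal raised to the lowest one well above background, the line had at least 13-fold less than the reference in Hepa1-6 and at least 11-fold less in PAN02. The neighbouring probe on the left, at 57862014, read 0.66 and 0.53, and the one on the right, at 57898199, read 0.061 and 0.034. Both arrays thus lost the same 4 probes and kept the same neighbours.

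None of the other arrays had this deletion. Over the 4 probes the 10 other C57BI6 arrays averaged between -0.50 and 0.17, and the 4 arrays of other strains between -0.14 and 0.23. B16F0 ECAC, at -0.50, was the lowest of them, and none of its 4 probes was dim. Segmentation drew the deletion with 5 probes, its smallest allowed size, and their mean was -4.42 in Hepa1-6 and -4.05 in PAN02. With another background correction (normexp) that mean was -0.65 and -0.18, so the depth depends on the correction. Over those 5 probes, without normexp, B16F0 ECAC and a further array fell past -0.3. For that reason the count of short segments of the pair alone is 0 by that rule.

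A step measure was therefore added after these values had been seen. The median of the 10 other C57BI6 arrays was subtracted from every probe, which removes effects that belong to a probe, and each short segment was compared with the 50 probes on either side of it. Of 186 short autosomal segments, 8 stood at least 0.3 from their flanks in the same direction in both arrays. In 2 of them every other C57BI6 array stood out by less than 0.15 in that direction: the chromosome 12 deletion and a short gain on chromosome 8. Both were found at the same probes when Hepa1-6 alone and PAN02 alone were segmented in this way. Hepa1-6 alone also gave chr12:57207813-57862073, beside the deletion, with a step of 0.33, and 0.29 in PAN02. PAN02 alone did not give that segment. A loss at chr6:94023696-94206570 came close, at -0.37 in Hepa1-6 and -0.38 in PAN02. It stood below its flanks by a step of -0.31 and -0.34, and the largest step in another C57BI6 array was -0.15. Without the B16F10 ATCC array this loss passed as well, which made 3 such segments.

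The gain on chromosome 8, chr8:129783832-129910700, holds 16 probes and spans 127 kb. It was at 0.82 ± 0.062 (SE over 16 probes) in Hepa1-6 and 0.85 ± 0.073 in PAN02, a ratio of 1.76 and 1.80. The 50 probes to its left averaged -0.18 in Hepa1-6 and -0.17 in PAN02, and the 50 to its right -0.14 and -0.23. All 16 probes were above 0 in both arrays, from 0.46 to 1.30 in Hepa1-6 and from 0.42 to 1.42 in PAN02. Among the other C57BI6 arrays MC38 was the highest over these probes, at 0.57, and its flanks were high too, at 0.46 and 0.45. These levels are as measured, and the steps that follow are with the median of the 10 other C57BI6 arrays subtracted. The step above the flanks was 0.89 in Hepa1-6 and 0.96 in PAN02, and from -0.13 to 0.038 in the 10 others. Subtracting their own median draws the steps of these 10 towards 0. As measured, each of these 10 except LL2 also stood above both of its flanks. B16F10 ATCC was at -0.018 against -0.14 and -0.13, and TRAMPC2 at 0.32 against 0.25 and 0.13. In the arrays of other strains the step reached 0.20.

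**Figure D3:**
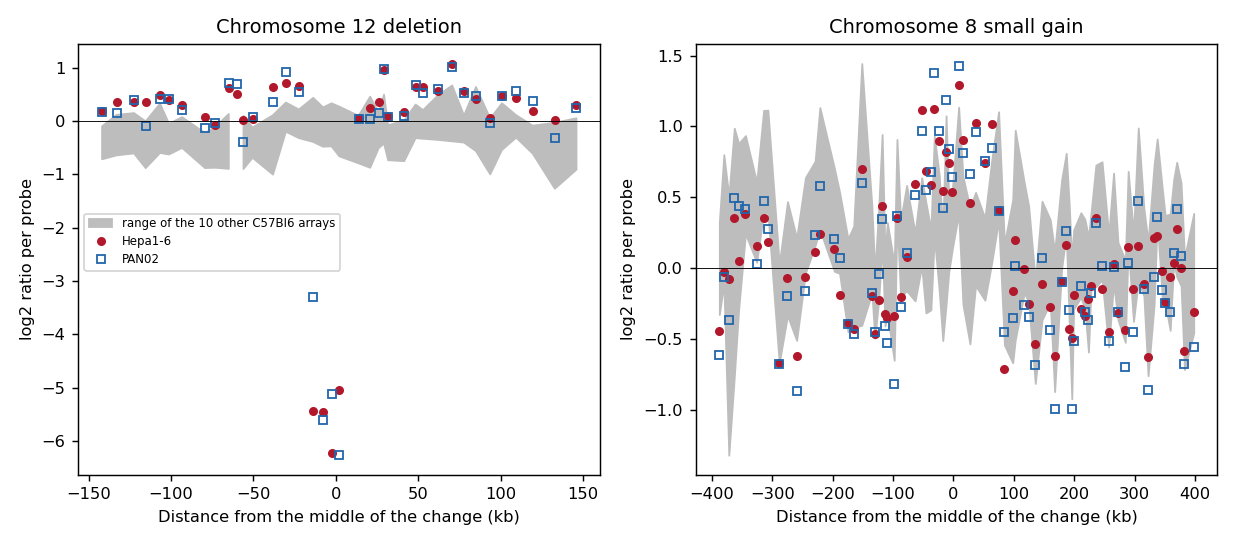
The log2 ratio of single probes around the chromosome 12 deletion (left) and the chromosome 8 gain (right), by distance in kb from the middle of the change, with Hepa1-6 as red circles, PAN02 as open blue squares and the range of the 10 other C57BI6 arrays in grey. Both arrays drop at the same 4 probes on the left, and on the right the 16 probes in the middle are above 0 in both.

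A stretch of chromosome 4 that most of the lines had lost was present in both arrays. Over the 8 probes of chr4:88738012-88776278, Hepa1-6 was at -0.21 ± 0.20 (SE over 8 probes) and PAN02 at -0.21 ± 0.21. TRAMPC1 and TRAMPC2 also kept it, at -0.11 and -0.088. EL4 averaged -0.59 ± 0.84 (SE over 8 probes), with 1 probe of the line dim, so its level is uncertain. The lowest of the other C57BI6 arrays was at -5.92. No probe of the line was dim there in either Hepa1-6 or PAN02. The level was that of the surrounding chromosome, where the segment up to 111521540 was at -0.26 and -0.29.

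Over 2395 bins of 1 Mb, Hepa1-6 and PAN02 correlated with r = 0.992 (Pearson, across bins, which share the reference DNA and are not independent replicates). With the median of the other C57BI6 arrays subtracted from each bin, which takes out what the strain and the reference have in common, r was 0.987, and also 0.987 without the B16F10 ATCC array. With the mean of each chromosome removed from both arrays, so that only differences within chromosomes counted, r was 0.976. Sublines reached between 0.668 and 0.926 on the second measure and between 0.739 and 0.934 on the third. Arrays of different families ran from -0.165 to 0.536 on the second measure. On the third they ran from 0.129 to 0.806 and overlapped the sublines. Apart from its partner, the array nearest to each of the pair depended on the measure. It was LL2 over the bins as they are, with r = 0.452 to PAN02 and 0.440 to Hepa1-6. It was TRAMPC2 with the median of the others subtracted, with 0.427 and 0.429. It was ID8 within chromosomes, with 0.806 and 0.788.

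Of the bins, 0% differed by 0.3 or more between Hepa1-6 and PAN02, and the largest difference of a bin was 0.240. TRAMPC1 and TRAMPC2, the closest sublines, differed by that much in 1.13% of bins and by up to 0.664 in a single bin. The 6 pairs of B16 sublines differed in 9.85% to 20.6% of bins. The pair labelled as liver and as pancreas was thus nearer to each other than any of the 7 pairs of sublines, by bins and by correlation. B16F0 and B16F10 are each on 2 arrays, whose labels add ECAC, ATCC or NCI, and these are counted here as sublines. No DNA is labelled as hybridised more than once, so the difference between repeat arrays of 1 DNA is not known, and arrays of 1 DNA and arrays of closely related lines cannot be told apart.

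**Figure D4:**
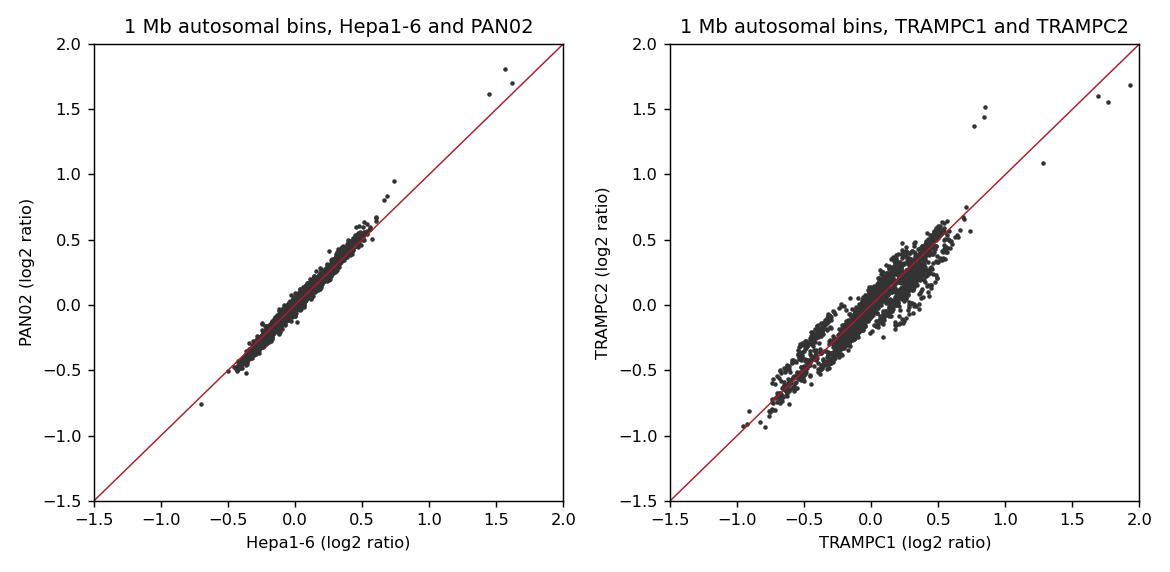
Means of 1 Mb autosomal bins (log2 ratio) of PAN02 against Hepa1-6 (left) and of TRAMPC2 against TRAMPC1 (right), with the line of equal values in red. The left points follow the line with r = 0.992, and the right points spread more widely around it with r = 0.931.

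**Figure D5:**
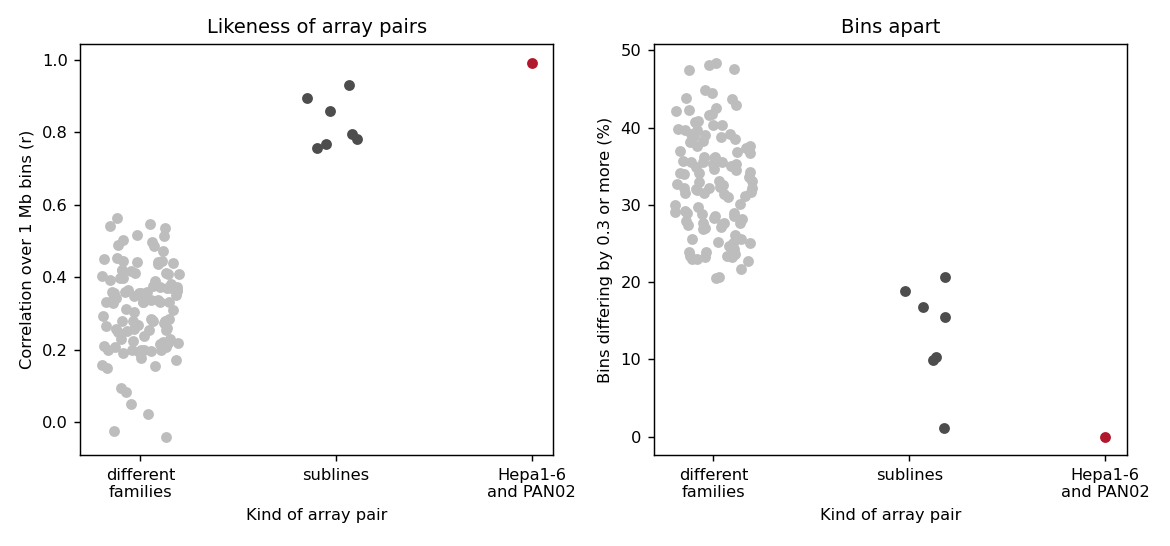
Correlation over 1 Mb bins (left) and percent of bins differing by 0.3 or more (right) for the 112 pairs of arrays from different families, the 7 pairs of sublines and the pair of Hepa1-6 and PAN02, 1 point per pair. Hepa1-6 and PAN02 give the highest correlation, 0.992, and the lowest share of differing bins, 0%.

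The size of the changes differed slightly between the arrays. The SD of the bins was 0.222 in Hepa1-6 and 0.241 in PAN02, a ratio of 1.09. The slope of PAN02 on Hepa1-6 was 1.08, and PAN02 was also 1.08 times lower on chromosome X. The bins differed between the arrays with an SD of 0.035, which was 1.72 times what the noise between neighbouring probes gives, and 1.5 times once the slope was taken out. Differences between single probes within a neighbourhood did not set the pair apart. Their correlation was 0.876 for Hepa1-6 and PAN02 and 0.929 for PAN02 and TRAMPC2. It was also above 0.876 across scan batches for unrelated lines, at 0.899 for PAN02 and ID8 and 0.884 for Hepa1-6 and TRAMPC1.

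When PAN02 minus Hepa1-6 was itself divided into segments, 18 of the 19 autosomes came out as a single segment. The exception was chromosome 4, with 1 segment past 0.3, chr4:111521481-113416059. Its 106 probes averaged 2.24 in Hepa1-6 and 2.57 in PAN02, a difference of 0.33 ± 0.053 (SE over probes). It covers the strain gain described above, and at 49 of its probes the reference was dim (not well above background) on at least one of the arrays. Without such probes the difference was 0.24 over 57 probes, and with another background correction (normexp) it turned to -0.29. No other autosomal segment differed by 0.1 or more.

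Single probes gave a further difference. Hepa1-6 had 18 probes on 12 chromosomes that were at least 1.5 below their neighbourhood there and not low in PAN02 or any of the other 14 arrays. The lowest read -6.13 in Hepa1-6 and -0.72 in PAN02, at chr8:26861170-26861229. In 14 of the 18 the signal of the line was not well above background. PAN02 had 0 such probes of its own, and the other arrays had between 0 and 930, with a median of 23. Probes low in both arrays and in no other numbered 4, the 4 of the chromosome 12 deletion.

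Strain was checked on probes chosen from the other arrays alone. There were 903 autosomal probes at which each of the 10 other C57BI6 arrays lay at least 1 above each of the 3 Balb/C arrays. At these, Hepa1-6 fell on the C57BI6 side of the midpoint in 901 and PAN02 in 903. At the 82 probes higher in Balb/C, both fell on the C57BI6 side in all 82. The Hepa1-6 exceptions were 1 probe each on chromosomes 4 and 6. The one on chromosome 4, at 112885206, lies in the segment where the arrays differed and read 0.83 in Hepa1-6 and 3.19 in PAN02.

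On the sex chromosomes, only Y separated the pair from lines labelled male. The median of chromosome Y was -0.81 in Hepa1-6 and -0.87 in PAN02, while TRAMPC1 and TRAMPC2, labelled male, stood at 3.13 and 3.14. The median of chromosome X was -1.07 in Hepa1-6 and -1.15 in PAN02, near that of the male-labelled TRAMPC1 at -1.09 and TRAMPC2 at -0.98. The level of X thus did not separate Hepa1-6 and PAN02 from the lines labelled male, and why it was low was not tested. All 10 other C57BI6 arrays had a low X too, from -1.28 to -0.34. On chromosome Y the signal of the line was well above background in 40.6% of probes in Hepa1-6 and 25.1% in PAN02. The Y segments in which the arrays differed, chrY:691903-768317 with 0.28 ± 0.093 (SE over 92 probes) and chrY:768683-2177575 with -0.14 ± 0.044 (SE over 307 probes), include many probes dim in the reference, 65 and 150. Without those, the first turned to -0.25 and the second grew to -0.33.

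No gene table on mm8 was used, so no gene is placed inside a segment, and only the chromosome of some well known cancer genes was looked up. Of 15 listed oncogenes, 4 lie on chromosomes at or above 0.2 in both arrays: Myc on chromosome 15 and Mycn on chromosome 12, which drive cell growth, and Cdk4 and Mdm2 on chromosome 10, which act in the cell cycle and on p53. None lies on a chromosome at or below -0.2. Of 15 listed tumour suppressors, 7 lie on such low chromosomes: Cdkn2a, Cdkn2b and Arid1a on chromosome 4, Rb1 and Bap1 on 14, and Apc and Smad4 on 18. Another 3 lie on the gained chromosomes: Stk11 on 10, and Tsc2 and Axin1 on 17. By chromosome, 5 of 19 autosomes were at or above 0.2 and 4 at or below -0.2, and the lists were chosen with the chromosome levels known. With mode centring 0 of the 15 tumour suppressors lay on a chromosome at or below -0.2 in both arrays, and the counts on gained chromosomes were the same.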

How the data were processed

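DNA of each line was labelled with Cy5 and reference DNA with Cy3, per the labels. Per the file headers, the deposited intensity values were made with Feature Extraction 10.7.3.1 (Agilent; also in the submitters' processing notes) on the build mm8. The deposited log10 ratio of a spot matched its processed intensity values within 0.001 (log2) in 99.9% or more of an array's spots. The deposited value table holds log2 ratios. The deposited flags for outliers and background are 0 or 1.

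Log2 of processed red over green was computed without flagged and control spots, averaged per probe and centred on the autosomal median, with no loess. Profiles were segmented with PELT on squared error. Each change point cost 6 noise variances times the natural log of the autosomal probe count, with at least 5 probes a segment and probes limited to 3 noise SDs from a running median of 5. The search was tested on simulated data. No change planted there was as short as the chromosome 12 deletion or as small as many of the steps found here. Bins of 1 Mb held at least 5 probes. Local probe values are relative to a running median of 101 probes, and a single low probe was at or below -1.5 with all others above -0.75. Normexp (limma 3.58.1, R 4.3.3, offset 50) used median in place of the planned mean signals. Other steps ran in Python 3.11.15 with numpy 2.4.6 and scipy 1.17.1.

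Named segments were those at least 5 Mb long past 0.3 in both arrays, short ones past 0.5, and differences past 0.3. The pair, the lists and the tests were chosen with earlier results of these data known. The planned gene lists were not run because they need gene positions on mm8. Chromosomes of genes came from RefSeq on another build, and all 15 genes of each list matched by symbol; some genes are not reported here. Alternatives were mode centring, normexp, the deposited table, leaving out probes dim in the reference, the penalty, bin size and thresholds.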

Additional observations from a re-analysis of the deposited data

How the results depend on the processing

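With 1 array per line, no result has a replicate, and the noisier PAN02 array (SD 0.40 against 0.31) needs a larger step for a short change to be found. The bin correlation of 0.992 was 0.941 with normexp, 0.980 with 250 kb bins and 0.987 with the other C57BI6 median subtracted. The share of bins differing was 0% with mode centring, with the deposited table, without probes dim in the reference and, chosen after seeing the data, with no minimum of probes per bin, and 9.69% with normexp. Normexp shrank the chromosome 12 gain in PAN02, from 0.39 to 0.088, and raised it in Hepa1-6, from 0.37 to 0.42. The median line signal was 277 over a background of 50.5 in PAN02 and 414 over 52.5 in Hepa1-6, and the part of these in the shrinkage was not tested. Normexp gave 9 autosomal difference segments past 0.3 in place of 1, and the chromosome 4 difference was reversed to -0.286.

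The share altered in both, 13.4%, was 20.6% with mode centring, 0.0535% with normexp, 11.5% without probes dim in the reference, 8.91% with a penalty of 12, 35.4% at a threshold of 0.2 and 0.185% at 0.5. The share in the pair and in no other C57BI6 array, 4.47%, was 5.29% with mode centring, 0% with normexp, 1.82% with a penalty of 12, 0.148% with a limit of 0.15 for the others, 5.53% at 0.2, and 0% with 0.5 for the pair and 0.3 for the others. It was again 4.47% without the B16F10 ATCC array. All values without that array, and the gene list counts with mode centring, were chosen after seeing the data. The share of Hepa1-6 breakpoints found in PAN02 was 76.9% with a penalty of 12. The share of PAN02 breakpoints found in Hepa1-6 was 34.2% with normexp and 68.1% within 25 kb. The deposited table left all 105 levels, medians and differences within their error, and mode centring moved 60 of 105 upward by at most 0.06.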
